A study of Rattus norvegicus with 7 samples.

Results

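Glycolysis, glucose transport and the hypoxia-inducible factor Hif1a were followed in NR8383 cells, an immortal line of rat alveolar macrophages, with or without ZnO NPs. The set holds 10 genes, chosen by name: Hif1a, the glucose transporter gene Slc2a1, the glycolytic genes Hk2, Pfkl, Aldoa, Tpi1, Gapdh, Pgk1 and Eno1, and Ldha. They were measured by 23 of the 45598 probes on the array, and all 23 passed the filter on dim probes, as did 20065 probes in all. RNA was taken after 4 h from cells kept without serum, either unexposed (control, 4 biological replicates) or exposed to uncoated ZnO NPs (NM110) at the 2 µg/mL of the sample labels (3 biological replicates). The study's text gives a higher dose and another seeding density than the labels, so the groups are called only control and ZnO here. The cells are a single line, grown partly attached and partly floating, and each replicate was hybridized to 1 single-color Agilent rat array.

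Glycolysis splits glucose into pyruvate in the cytosol and yields ATP without oxygen. Glucose enters through facilitative transporters such as GLUT1 (Slc2a1), is trapped by hexokinase, and is passed through phosphofructokinase and aldolase to triose phosphates, from which the lower part of the pathway makes ATP. Lactate dehydrogenase then turns pyruvate into lactate and returns NAD. HIF-1alpha, the protein of Hif1a, is degraded while oxygen is plentiful, and when it is stable it pairs with Arnt and raises many genes of this pathway. In macrophages, glycolysis is known to climb on inflammatory activation, and alveolar macrophages are known to depend on it less than other macrophages do. HIF-1alpha is controlled largely at the protein level, which arrays do not measure.

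The 75th percentile of intensity, to which each array was scaled, lay between 958.2 and 1489.4 on control arrays and between 979.6 and 1602.8 on ZnO arrays, with no saturated spots. All arrays lay on 1 slide, where the first position index was 1 for every control array and 2 for every ZnO array, so that slide position and exposure cannot be told apart. Of 14 alveolar macrophage markers on the array, 13 were well above background on every array (Marco was so on none), and of 10 epithelial markers 0 were. Among the 13, only Csf1r, the receptor for macrophage growth factor, had an unadjusted p under 0.05 (5.93% of all probes did). Its log2 fold change was -0.28 (standard error 0.10, unadjusted p = 0.0287, adjusted p = 0.810 from limma). Well above background on every array were also 4 of 8 fibroblast markers (Acta2, Col1a2, Dcn, Thy1) and 3 of 5 endothelial markers (Cdh5, Pecam1, Vwf). The same held for 2 of 5 neutrophil markers (Camp, Mpo) and 1 of 5 lymphocyte markers (Cd3d). The summed level of each of these lists overlapped between the groups, and their part in the results was not tested. The zinc-induced genes Mt2A, Mt1a and Slc30a1 rose by log2 fold changes of 5.83, 3.40 and 1.37 (adjusted p = 3.85e-06, 3.72e-05 and 0.00278 from limma).

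None of the 10 genes passed the test between ZnO and control cells. With the p-values of limma adjusted over all probes (Benjamini-Hochberg), 0 of 10 came under 0.05 in either direction. Among all probes the share was 0.0498% (10 of 20065, all of them higher in ZnO). Centring the arrays on their medians gave 8 higher and 1 lower. A trended and robust variance gave 10 and 4, and array weights gave 11 and 3. At the stricter pair of limits used in the study, an adjusted p under 0.001 and a fold over 1.5, 0 members and 0.0199% of all probes passed. At an unadjusted p under 0.05 the count was also 0 of 10, beside 5.93% of all probes. With 10 genes, shares this small give counts at or near 0, so these counts do not set the members apart. Log2 fold changes (ZnO minus control) ran from -0.15 for Aldoa to 0.06 for Hif1a, with a median of -0.04 beside -0.01 for all probes. Of the 10 values, 3 lay above 0 and 7 below. The split turned with centring on spike-in spots, where 6 lay above 0 and the median was 0.027 (0.063 for all probes). It widened with centring on the median, where 1 lay above 0 and 9 below, with a median of -0.08 (-0.044 for all probes). The members' median was -0.004 without ZnO replicate 1, -0.008 without control replicate 4 and -0.075 without ZnO replicate 3. With percentile scaling, the 95% interval of every member lay within a fold of 1.5 either way, as it did for 82.6% of all probes. This bound does not carry over to spike-in centring, where the fit was less precise. There Hif1a was at 0.127 with an unadjusted p of 0.783 from limma, beside 0.057 and 0.446 with percentile scaling. ZnO arrays overlapped control arrays for each of the 10, and 7.38% of all probes had no such overlap (3.79% with ZnO higher, 3.59% with ZnO lower). Even the intervals with percentile scaling leave room for small shifts, and a missed threshold does not show that the levels were equal.

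**Figure D1:**
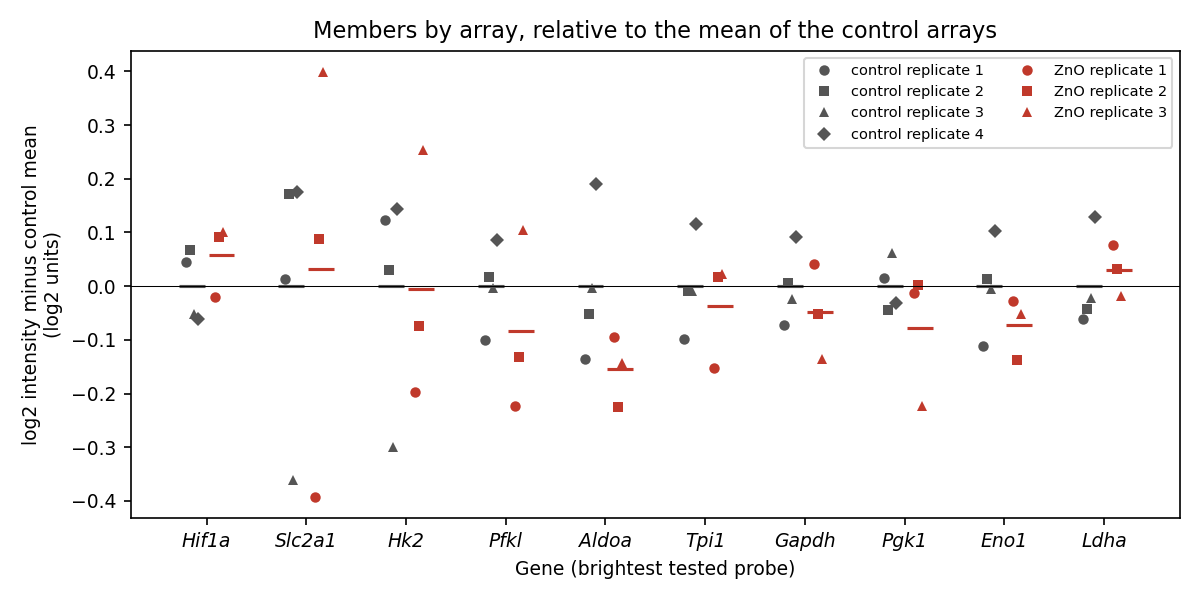
Log2 intensity of each member's brightest probe minus its mean over the 4 control arrays (vertical axis, log2 units), by gene (horizontal axis), 1 point per array (grey for control, red for ZnO), and short bars marking the mean of each group. The groups overlap for all 10 genes, and the points of Slc2a1 and Hk2 are spread more widely than those of the other genes.

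Hif1a encodes the oxygen-regulated subunit of HIF-1. Its brighter probe was at 1.10, 1.12, 1.00 and 0.99 on control arrays 1 to 4 and at 1.03, 1.14 and 1.16 on ZnO arrays 1 to 3, as log2 intensity relative to the 75th percentile of the array. These 7 values spanned a narrow range, and the lowest ZnO array lay inside the control range. By limma the difference was 0.06 on the log2 scale, with a standard error of 0.07 (adjusted p = 0.987), and the interval allows a fold between 0.927 and 1.17. The other Hif1a probe, which reaches the end of the coding part, was dim, with a control mean of -4.54 against 1.05 for the brighter probe. It gave -0.05 with a standard error of 0.26, and its fold interval ran from 0.632 to 1.48. With percentile scaling, it was the only member probe whose interval left the range of a 1.5-fold change. Its values scattered by 0.38 (SD, n = 4) in controls and 0.46 (SD, n = 3) after ZnO. Its 60 bases, shown because it is the stretch of the transcript behind the least precise reading among the members, lie at chr6:96462636-96462695 of rn4 on the plus strand.
Hif1a probe A_64_P081874: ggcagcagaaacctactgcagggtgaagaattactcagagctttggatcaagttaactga

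Slc2a1 encodes GLUT1, the basal glucose transporter of the plasma membrane. It was at 1.73, 1.89, 1.35 and 1.89 on control arrays 1 to 4 and at 1.32, 1.80 and 2.12 on ZnO arrays 1 to 3. ZnO replicates 1 and 3 were the lowest and the highest of all 7 arrays, so the exposed cells spanned the whole range. Its log2 fold change by limma, 0.03, came with a standard error of 0.21 (adjusted p = 0.999). Its fold interval of 0.732 to 1.43 was the widest among the 10 genes. Without ZnO replicate 3 the value was -0.15, and without ZnO replicate 1 it was 0.24, neither past the test.

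Hk2 encodes the inducible hexokinase, which phosphorylates glucose on entry. The transcript its brighter probe was designed on, a predicted one, is the 1 of 23 not listed in the RefSeq table, so the name of this probe rests on the array file. Its brighter probe was at -0.97, -1.06, -1.39 and -0.95 in controls 1 to 4 and at -1.29, -1.17 and -0.84 in ZnO replicates 1 to 3. Control replicate 3 was the lowest array and ZnO replicate 3 the highest. By limma the mean difference was -0.01 in log2 units, with a standard error of 0.15 (adjusted p = 0.999) and a fold interval of 0.786 to 1.26. The other Hk2 probe gave -0.12 (standard error 0.10). The sign of the brighter probe's value turned in 7 of 20 alternative settings.

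In the upper part of the pathway, Pfkl (liver-type phosphofructokinase, which catalyses the committed step) was at -2.39, -2.27, -2.29 and -2.20 in controls and at -2.51, -2.42 and -2.18 after ZnO. Its log2 fold change was -0.08 (standard error 0.10, fold interval 0.808 to 1.10). Aldoa, the aldolase that splits fructose 1,6-bisphosphate, was at 4.57, 4.66, 4.71 and 4.90 in controls and at 4.62, 4.48 and 4.57 after ZnO. Aldoa had the value farthest from 0 among the 10 genes, -0.15 (standard error 0.09, unadjusted p = 0.135, adjusted p = 0.915 from limma), with a fold interval of 0.774 to 1.04. It stayed below 0 in all 20 alternative settings, from -0.20 to -0.085, and passed the test in none. A sign that never turned was not particular to Aldoa, since Hif1a, Pfkl, Pgk1 and Eno1 kept theirs too. The settings reuse the same arrays and are not separate evidence. Tpi1, which interconverts the triose phosphates, was at 1.76, 1.85, 1.85 and 1.97 in controls and at 1.71, 1.88 and 1.88 after ZnO, a log2 fold change of -0.04 (standard error 0.08).

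In the lower part, Pgk1 (phosphoglycerate kinase, the first step that makes ATP) was at 5.60, 5.54, 5.64 and 5.55 in controls and at 5.57, 5.58 and 5.36 after ZnO. Of the ZnO arrays, replicate 3 alone lay outside the control range, and the log2 fold change was -0.08 (standard error 0.08, fold interval 0.832 to 1.08). Eno1, the main enolase outside muscle and nerve, was at 4.69, 4.81, 4.79 and 4.90 in controls and at 4.77, 4.66 and 4.75 after ZnO by its brightest probe. That gave -0.07 (standard error 0.08, fold interval 0.842 to 1.07). Ldha, the subunit of lactate dehydrogenase that favours lactate formation, was at 6.27, 6.28, 6.30 and 6.45 in controls and at 6.40, 6.36 and 6.31 after ZnO. All its ZnO values lay inside the control range, and the log2 fold change was 0.03 (standard error 0.07, fold interval 0.906 to 1.15).

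Gapdh, glyceraldehyde-3-phosphate dehydrogenase and a common reference transcript, had 8 probes. By its brightest probe it was at 6.24, 6.32, 6.29 and 6.41 in controls and at 6.36, 6.26 and 6.18 after ZnO, a log2 fold change of -0.05 (standard error 0.08, fold interval 0.856 to 1.09). Over the 8 probes the log2 fold change ran from -0.21 to 0.02, and 7 of 8 lay below 0. None had an unadjusted p under 0.166. These probes read the same transcript on the same arrays and are not separate replicates. The 5 other transcripts often used as references, Actb, B2m, Hprt1, Ppia and Tbp, ranged from -0.12 to 0.10, and none passed the test.

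Several Gapdh probes cover the same stretch with different bases, and processed pseudogenes of Gapdh are known to be numerous in rodents. The pairs of the coding part that overlap without gaps are shown in lower case, with the bases at which a pair differs in capitals; positions count from 1 at the 5′ end of the first probe of a pair. The first pair, on the minus strand at chr4:161283737-161283796 and chr4:161283726-161283785 of rn4, shares a window of 49 bases and differs by G17T and G29C.
Gapdh probe A_44_P1370746: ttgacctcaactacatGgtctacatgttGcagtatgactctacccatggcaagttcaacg
Gapdh probe A_44_P1361311: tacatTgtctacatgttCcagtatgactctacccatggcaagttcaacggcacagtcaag
The second pair, at chr4:161282447-161282616 and chr4:161282438-161282607, shares 51 bases and differs by G12T and C49A. Each of these 60-base probes is placed on 170 bases of genome, as a probe across a splice junction is.
Gapdh probe A_44_P1360392: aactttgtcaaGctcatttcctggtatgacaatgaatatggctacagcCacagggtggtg
Gapdh probe A_44_P1360156: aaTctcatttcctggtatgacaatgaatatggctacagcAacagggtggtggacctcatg
Both probes of a pair cannot match 1 transcript base for base, so signal from a near-identical copy cannot be told apart from that of Gapdh at these probes. Within the first pair the log2 fold changes were -0.14 (A_44_P1370746) and -0.21 (A_44_P1361311), and within the second -0.07 (A_44_P1360392) and -0.05 (A_44_P1360156). A further pair toward the 3′ end, A_44_P1081694 and A_64_P003046, differed by G43A and C51T in 41 shared bases and gave 0.02 and -0.03. The remaining Gapdh probes, A_44_P1361986 and A_44_P1366411, start at bases 482 and 484 of the transcript in the array file. By that count they cover nearly the same stretch, but they did not align without gaps and are not shown. Their rn4 positions in that file differ: chr4:161283260-161283319 for A_44_P1361986, and only 34 bases, chr4:161282185-161282218, for A_44_P1366411. These probes gave -0.12 and -0.08.

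Of the 23 probes, 1 had ZnO arrays all below the control arrays (against 3.59% of all probes). It is the Eno1 probe at chr5:167402355-167402413 of rn4, plus strand, singled out after its values were seen. Averaged over its spots, of which 10 were printed, it read 2.91, 3.03, 3.14 and 3.21 in controls and 2.90, 2.91 and 2.90 after ZnO. The lowest control array and the highest ZnO array differed by less than the rounding of these values. Its log2 fold change was -0.17 (standard error 0.08, unadjusted p = 0.084, adjusted p = 0.878 from limma).
Eno1 probe A_44_P1360447: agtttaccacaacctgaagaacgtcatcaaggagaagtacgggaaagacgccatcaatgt
The other Eno1 probes, nearer the 3′ end, gave -0.07 (A_64_P093037) and -0.06 (A_44_P1124319), with overlapping groups. Ldha probes gave 0.03, 0.01 and -0.04, the last from 10 printed spots in the coding part.

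**Figure D2:**
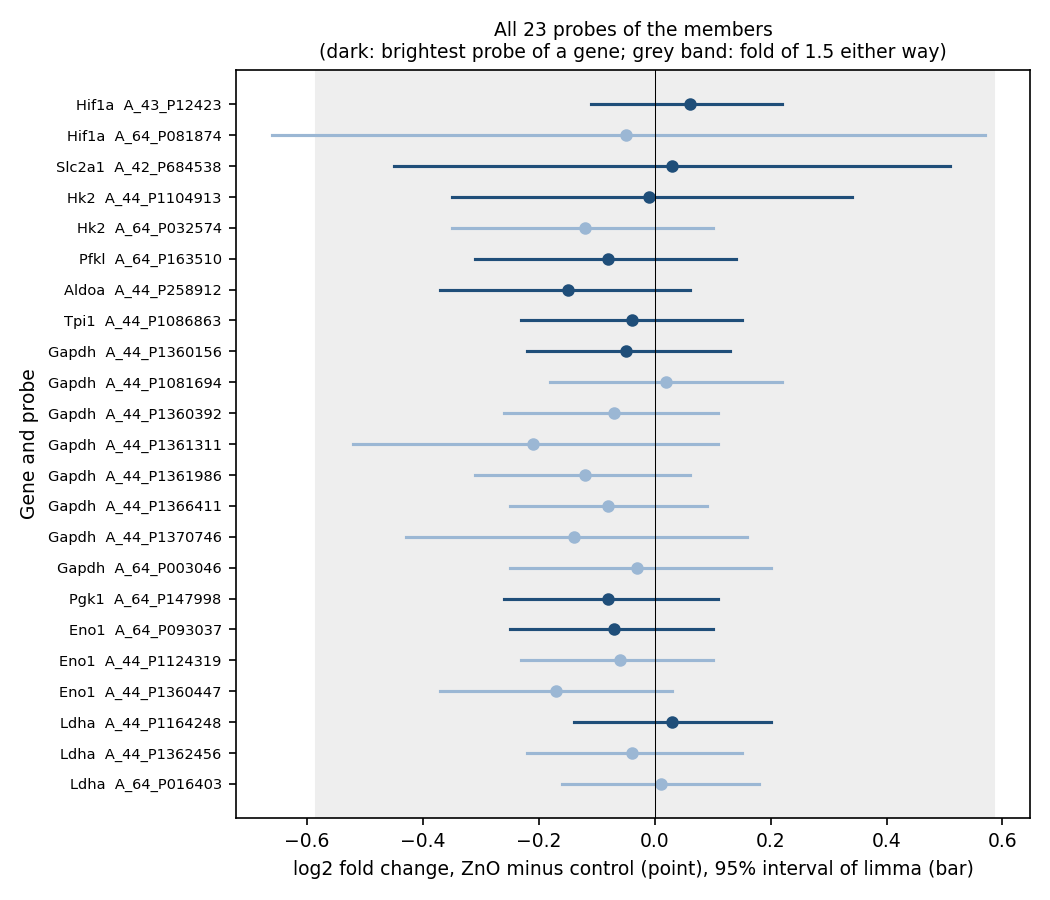
Log2 fold change, ZnO minus control (horizontal axis), with the 95% interval of limma, for all 23 probes of the 10 genes (vertical axis), the brightest probe of each gene in dark blue and the others in light blue. With percentile scaling, as drawn, every interval includes 0, and only that of the Hif1a probe A_64_P081874 leaves the grey band, a fold of 1.5 either way.

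The members varied over the 7 arrays in ways that did not follow the exposure. Slc2a1 and Hk2 were both low on control replicate 3 and ZnO replicate 1 and both highest on ZnO replicate 3 (Pearson's r = 0.90, exact permutation p = 0.00476; Spearman's rho = 0.86, exact permutation p = 0.0238). Aldoa and Eno1 also varied together (r = 0.94, exact permutation p = 0.00119; rho = 0.93, exact permutation p = 0.00675). With adjustment over the 45 pairs of members, these became 0.107 and 0.214 for Slc2a1 with Hk2 and 0.0536 and 0.214 for Aldoa with Eno1, and 0 pairs passed. Without the 2 arrays farthest from the median of Slc2a1 (or Aldoa), r was 0.64 (or 0.78). These values share the scaling of each array, and tests were two-sided. Control replicate 4 was the highest array for 5 members and ZnO replicate 3 for 4.

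**Figure D3:**
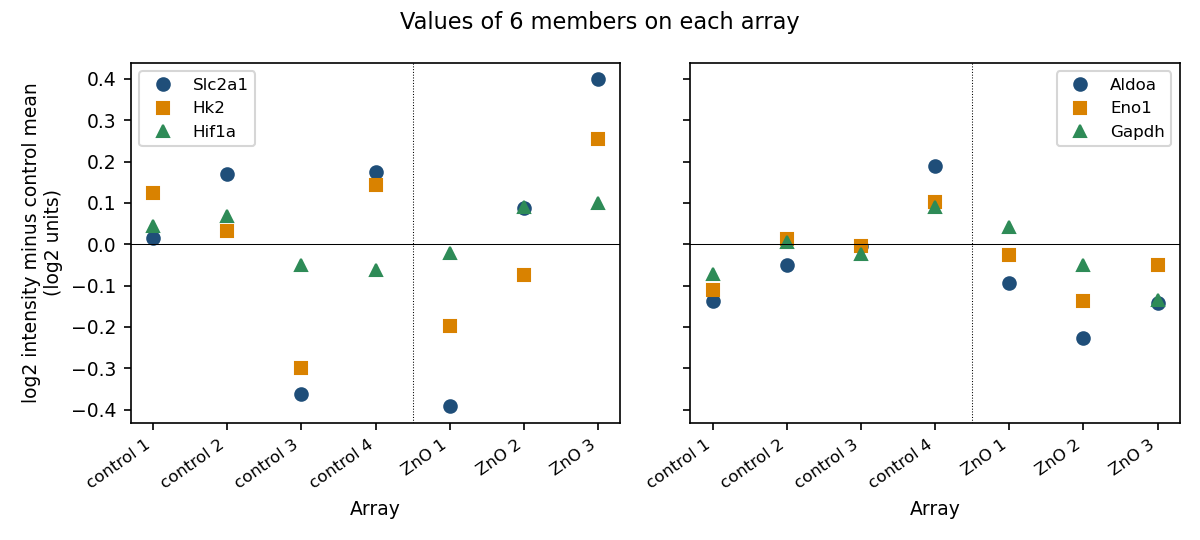
Log2 intensity minus the control mean (vertical axis, log2 units) on each of the 7 arrays (horizontal axis, control arrays left of the dotted line) for Slc2a1, Hk2 and Hif1a in the left panel and Aldoa, Eno1 and Gapdh in the right panel. Slc2a1 and Hk2 are low together on control replicate 3 and ZnO replicate 1, and Aldoa and Eno1 peak together on control replicate 4.

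HIF-1 binds the core motifs ACGTG and GCGTG, and the 300-base windows around transcription starts (RefSeq, GRCr8) were searched for both on both strands. Windows were found for 9 of the 10 genes, 12 windows in all. ACGTG was in 6 of the 12 and in 19.3% of all 33469 windows, and GCGTG was in 6 of the 12 and in 29.7% of all. ACGTG occurred in windows of Hif1a, Slc2a1, Aldoa, Gapdh, Eno1 and Ldha. The 60 bases of the Ldha promoter from 90 to 31 upstream of the start, chr1:106508002-106508061 on the plus strand, hold ACGTG 3 times, as both strands of a CACGTG and as its reverse complement in CACGT. In Slc2a1, the 60 bases from 70 to 11 upstream, chr5:138002452-138002511 on the plus strand, hold it once. Both are shown, with only ACGTG in capitals, because Ldha and Slc2a1 are textbook HIF-1 targets. GCGTG is left in lower case, and the Slc2a1 stretch holds it on the other strand, as cacgc.
Ldha promoter: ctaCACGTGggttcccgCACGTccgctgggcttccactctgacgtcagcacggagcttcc
Slc2a1 promoter: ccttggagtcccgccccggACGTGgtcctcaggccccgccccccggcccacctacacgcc
Neither of these genes moved beyond the spread between arrays (log2 fold changes of 0.03 for both), and a match to the letters is no measured binding site.

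The rest of the pathway was read through lists of 102 further names on the array, of which 69 had a tested probe. None of the 69 passed limma at an adjusted p of 0.05 (0 in either direction), and at an unadjusted p under 0.05, 3 were higher (3.07% of all probes) and 2 lower (2.86%). The 33 names without a tested probe show which isoforms these macrophages gave little signal for, 20 of them on no array. Hk3 was measured beside Hk2, while Hk1 was not well above background on any array. Pfkp was measured beside Pfkl, and Pfkm was not. Pgk1 was measured, and Pgk2 was not. Besides Slc2a1, the transporters Slc2a5, Slc2a8, Slc2a9 and Slc2a12 were measured, and Slc2a3 and Slc2a4 were not well above background on any array. Single probes may fail, so these are statements about probes and not proof of absence.

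Of 11 other glycolytic genes tested, 2 were above 0 and 9 below, with a median log2 fold change of -0.04, beside -0.01 for all probes. They ran from -0.09 for Minpp1, a phosphatase of 2,3-bisphosphoglycerate, to 0.10 for Bpgm, the mutase that makes it. Pkm, the pyruvate kinase of macrophages, was at -0.01 (standard error 0.09), and Gpi, Pfkp and Pgam1 were at -0.08, -0.08 and -0.04. The 8 genes of the pentose phosphate branch ran from -0.20 for Rpia, a ribose phosphate isomerase, to 0.12 for H6pd of the endoplasmic reticulum. Of 14 regulators of glycolysis and of pyruvate entry into mitochondria, 7 were above 0 and 7 below. They ran from -0.15 for the kinase Pdk2 to 0.53 for Pdhx, a subunit of the pyruvate dehydrogenase complex. Pdhx (standard error 0.24, adjusted p = 0.867 from limma) was dim, with means of -5.67 in controls and -5.14 after ZnO, and its groups overlapped.

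Among 10 tested transporters of glucose, lactate and pyruvate, the median was -0.01. Slc16a8, a lactate transporter best known from the eye, had the highest value, 0.84 (standard error 0.27, adjusted p = 0.737 from limma). It read -6.01, -6.42, -6.09 and -5.67 in controls and -5.45, -5.61 and -4.57 after ZnO, without overlap, but was well above background on only 4 of the 7 arrays and so entered the test through the group in which it was higher. Slc2a9, a transporter of urate and glucose, was lowest, at -0.15 (adjusted p = 0.844 from limma), with ZnO arrays at 0.56 to 0.67 and control arrays at 0.72 to 0.79. For neither gene did the groups overlap, and neither passed the test. Of all probes, 7.38% had no such overlap (3.79% with ZnO higher, 3.59% with ZnO lower).

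In the HIF pathway itself, 3 of 11 tested genes were above 0 and 8 below, with a median of -0.06. Arnt, the partner of HIF-1alpha, was at -0.08 (standard error 0.09). Egln1 and Egln2, the oxygen-sensing prolyl hydroxylases, were at -0.06 and -0.05, and Vhl, which marks hydroxylated HIF-1alpha for degradation, was at -0.03. Values ran from -0.16 for Cul2, the scaffold of the Vhl ligase (adjusted p = 0.880 from limma), to 0.07 for Rbx1, its RING subunit. Cul2 arrays did not overlap, at -2.44, -2.46, -2.39 and -2.26 in controls and -2.66, -2.50 and -2.49 after ZnO. Of all probes, 3.59% had all ZnO arrays below the control arrays. Epas1, the gene of HIF-2alpha, was not well above background on any array.

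Of the 15 tested HIF targets outside glycolysis, 10 were above 0 and 5 below, 4 had an unadjusted p under 0.05 (5.93% of all probes did), 3 had groups that did not overlap (7.38% of all probes), and none passed limma's adjusted test. Ankrd37, an ankyrin repeat protein, read -3.05, -2.85, -3.09 and -3.05 in controls and -2.72, -2.23 and -2.50 after ZnO. The groups did not overlap, and the log2 fold change was 0.53 (standard error 0.12, unadjusted p = 0.00315, adjusted p = 0.514 from limma). Angptl4, a lipoprotein lipase inhibitor that also answers to fatty acid sensors, was at 0.37 (standard error 0.13, adjusted p = 0.763 from limma), with overlapping groups. In the other direction, Car9, a carbonic anhydrase induced in hypoxia, was at -0.34 (standard error 0.14, adjusted p = 0.831 from limma). It was dim, with means of -4.35 in controls and -4.69 after ZnO. Ddit4, an inhibitor of mTORC1, was at -0.23 (standard error 0.08, adjusted p = 0.745 from limma). Both genes had all ZnO arrays below the control arrays. Adm, P4ha1, Higd1a and Plin2 were at 0.18, 0.16, 0.14 and 0.12, and Bnip3, Ndrg1, Kdm3a and P4ha2 at 0.06, 0.03, 0.03 and 0.02. Bnip3l, Ero1l and Mxi1 were at -0.01, -0.03 and -0.06, and the list's median was 0.03. Vegfa was not well above background on any array.

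**Figure D4:**
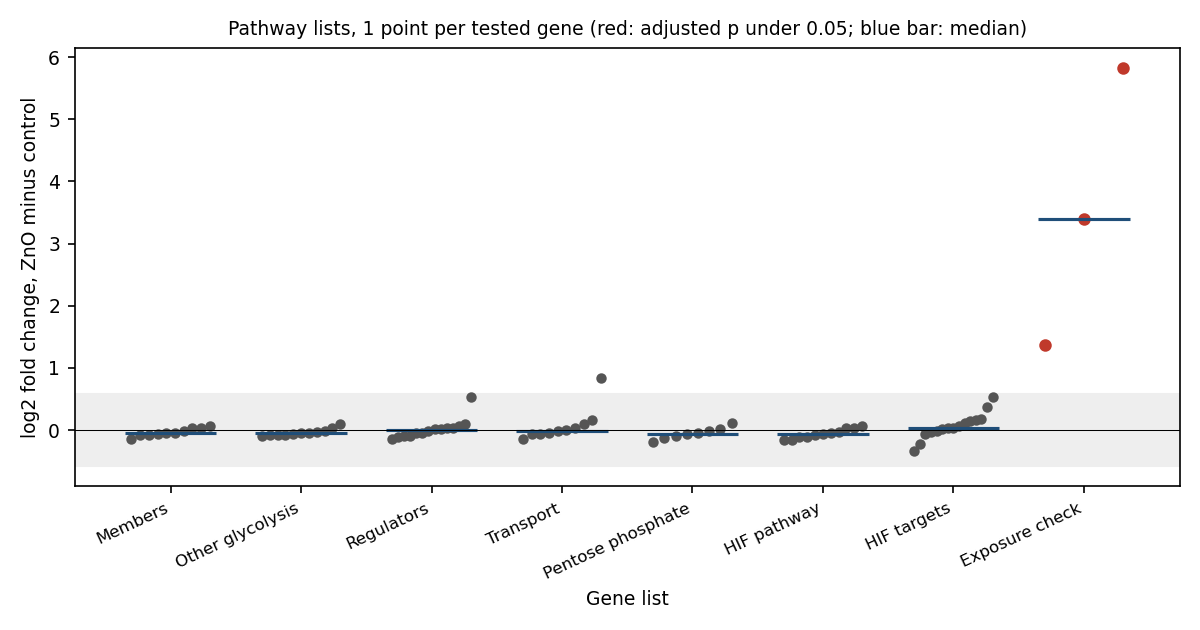
Log2 fold change, ZnO minus control (vertical axis), with 1 point for each tested gene, by list (horizontal axis), red where the adjusted p of limma was under 0.05, with blue bars at list medians and a grey band at a fold of 1.5 either way. The list medians of the members and of the pathway lists lie between -0.06 and 0.03, whereas Slc30a1, Mt1a and Mt2A, the check of the exposure, lie at 1.37, 3.40 and 5.83.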

How the data were processed

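RNA of 4 control and 3 ZnO cultures was measured on single-color arrays. The authors extracted them with Agilent Feature Extraction 11.0.1.1, and the deposited intensity of each spot is background-subtracted and detrended within the array. The deposited table of all arrays holds, spot for spot, the median intensity of the scanner files and was used only as an alternative. Here, log2 intensity was taken relative to each array's 75th percentile over non-control spots, leaving out outlier spots and averaging spots of a probe. A probe was tested when well above background (in at least 50% of its spots) on all arrays of a group. Groups were compared with limma 3.58.1 (R 4.3.3), with Benjamini-Hochberg adjustment over all tested probes, and the number of arrays limits the precision. The fit was tested on simulated data. Each gene takes its brightest tested probe. Alternatives changed the normalization, background correction, filter, variance model, probe rule and arrays used.

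Members and lists were chosen with earlier results of these data known. All members are named. Of each pathway list, genes at an unadjusted p under 0.05 and the highest and lowest values are named; other genes of the lists were named after their values were seen. Gene names and rn4 positions are those of the files, and 22 of 23 member probes had a transcript listed under the same symbol in GRCr8. Files were read with Python 3.11.15 and pandas 2.3.3. Some genes of the lists are not reported here.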

Additional observations from a re-analysis of the deposited data

Results flagged for a closer look

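Among the control arrays, the Hk2 probe A_64_P032574 read -2.65, -2.64, -2.74 and -2.64, so that control replicate 3 lay apart from the other 3 (gap over range 0.961, above Dixon's 95% critical value). The same comparison was run on all 23 probes of the members, and chance flags about 1 group in 20.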

How the results depend on the processing

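Members past an adjusted p under 0.05 numbered 0 in limma under every alternative run (other normalizations and background corrections, the deposited table, other filters and variance models, the mean of a gene's probes, a replicate block and each array left out), and so did the 69 other pathway genes. With 3 and 4 arrays, small shifts are not detectable, and a slide block could not be fitted on 1 slide. For all probes, 10 passed, but 5 with centring on the E1A spike-in spots, 5 when dim probes were kept and 4 under the replicate block; 14 passed both with a trended and robust variance (10 higher, 4 lower) and with array weights (11 higher, 3 lower), and centring on the median gave 8 higher and 1 lower. The median of the members was 0.027 with spike-in centring and -0.08 with centring on the median, and ran from -0.075 to -0.004 over single arrays left out. Replicate numbers did not pair the arrays. Correlations of deviations lay between -0.235 and 0.215 for arrays of the same number, and between -0.406 and 0.331 for arrays of different numbers. The replicate block, in which control replicate 4 has no partner and adds nothing, changed no other call.

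The sign turned in values near 0. Slc2a1 was -0.006 with centring on the median and -0.023 with normexp and quantile normalization, and ran from -0.152 to 0.243 over single arrays left out. Ldha was -0.008 with centring on the median. With spike-in centring, Hk2 was 0.064, Tpi1 0.032 and Gapdh 0.021. Tpi1 was 0.028 with array weights. With the replicate block, Hk2 was 0.042 and Tpi1 0.002. Over single arrays left out, Hk2 ran from -0.136 to 0.090 and Tpi1 from -0.070 to 0.021. The causes were not tested.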
